A study of Sus scrofa with 19 samples.

Results

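SFRP4, GLI1 and CTNNB1 are 3 genes of the Wnt and hedgehog signalling pathways, and they were followed here in pig endometrium, the mucous lining of the womb. The probes were found through the RefSeq accession that the scanner files give for each probe, which matched 1 probe to SFRP4, 1 to GLI1 and 5 to CTNNB1, or 7 of the 43603 probes on the array that were not controls, and 3 of the 3123 genes to which its probes gave a symbol. All 7 were bright enough to enter the fit, 6 of them on all 19 arrays, and GLI1 on 18 arrays.

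The study infused hormones into cannulated uterine horns of 10 crossbred gilts (young female pigs) aged 8 months, at intervals of 4 h over 24 h between days 11 and 12 of the cycle counted from oestrus. In 6 treated gilts 1 horn, picked by chance, was given PGE2 (prostaglandin E2, 200 µg) with E2 (estradiol, 33.3 µg) at each infusion and is called the hormone horn. The opposite horn received vehicle only (saline with ethanol) and is called the placebo horn. In 4 control gilts both horns received vehicle. Every gilt, controls included, had undergone the same surgery, and RNA of whole endometrium was hybridised to one-colour Agilent arrays. There were arrays of 6 hormone horns (gilts 36, 38, 40, 41, 44 and 47), 5 placebo horns (gilts 36, 38, 41, 44 and 47) and 8 control horns (gilts 9, 14, 28 and 46), of which 4 were marked L and 4 marked P. The labels leave the meaning of L and P unstated. The mark was L for all 5 placebo horns and P for 5 of the 6 hormone horns, so a difference between the horns of treated gilts cannot be told apart from one between the marks, except through the control gilts, which had both.

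Wnt ligands bind Frizzled receptors and keep β-catenin, the product of CTNNB1, from being degraded, so that it enters the nucleus and activates genes together with transcription factors of the TCF and LEF family. β-catenin also links cadherins to the cytoskeleton at the junctions between epithelial cells. SFRP4, secreted frizzled-related protein 4, binds Wnt proteins outside the cell and limits their action, and in human and rodent uterus it is known as a product of stromal cells. GLI1 is a transcription factor that is itself switched on by hedgehog signalling and therefore serves as its readout. In the mouse uterus the ligand is Indian hedgehog (IHH), which epithelium makes under progesterone and to which the stroma below responds.

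Levels are log2 ratios of the processed signal to the 75th percentile of its array, so that a probe as bright as that percentile has a level of 0. They are compared between arrays for a single probe and not between probes. Differences are estimates ± SE from a limma fit over all 19 arrays and all 39073 probes with the gilt as a random block. The control level is the mean of the L and P horns. SFRP4 was picked because earlier work on these arrays had named it among the genes lower in placebo horns than in control gilts. Which comparison brought in GLI1 and CTNNB1 is not known, so the differences of all 3 genes are described without a test. A probe is said to have passed where its adjusted p over all probes was under 0.05.

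The arrays were alike in quality. Spots well above background made up 79.1% to 88.4%, 75th percentiles of the processed signal ranged from 597 to 983, and 0 spots were saturated. The 4 measured of 6 uterine identity genes (ESR1, PGR, HOXA10 and MSX1) were above background on every array. Markers of other cells were not level between the groups. The neutrophil genes (5 of 6 measured) summed to 1.15 to 67.7 times the array's 75th percentile in hormone horns, 0.21 to 79.5 in placebo horns and 0.383 to 0.813 in control horns, with both horns of gilt 47 at the top. Among these genes PGLYRP1 went the other way, with mean log2 levels of -3.54 in hormone, -3.45 in placebo and -2.15 in control horns. In whole tissue, fewer cells of a type and less RNA per cell cannot be told apart.

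SFRP4 was lower in the placebo horns of treated gilts than in either the hormone horns of the same animals or the control gilts. In hormone horns its level was 0.47 in gilt 36, -1.09 in gilt 38, -0.71 in gilt 40, 0.13 in gilt 41, -0.17 in gilt 44 and 0.15 in gilt 47 (probe A_72_P289989). In placebo horns it was -0.15 in gilt 36, -1.94 in gilt 38, -0.65 in gilt 41, -1.60 in gilt 44 and -0.90 in gilt 47. In control gilts the L horns stood at -0.05, -0.13, -0.12 and 0.93 and the P horns at 0.69, -0.25, -0.26 and 0.59 (gilts 9, 14, 28 and 46 in that order). Of the placebo horns, 4 of 5 lay below every control horn, and the placebo horn of gilt 36 lay within the control range. The hormone horns of gilts 38 and 40 lay below every control horn, and the other 4 lay within the control range.

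The means were -0.20 ± 0.59 in hormone horns (SD, n = 6), -1.05 ± 0.72 in placebo horns (SD, n = 5) and 0.17 ± 0.46 in control gilts (SD over the means of 4 gilts). Placebo horns differed from control gilts by -1.28 ± 0.31, or 0.413-fold. This difference passed, as did 4.42% of all probes in this comparison (1.96% as lower), and it is among the values that chose the gene. Hormone horns differed from control gilts by -0.37 ± 0.30, or 0.771-fold, which is within the spread of the groups and did not pass, while 11.7% of all probes did (4.93% as lower).

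Within the treated gilts the hormone horn had more SFRP4 RNA than the placebo horn in every animal for which both were measured. The hormone horn was above the placebo horn by 0.63 in gilt 36, 0.85 in gilt 38, 0.79 in gilt 41, 1.43 in gilt 44 and 1.05 in gilt 47, with a mean of 0.95 ± 0.31 (SD, n = 5 gilts). Of all probes measured on these 10 arrays, 5.36% were higher in the hormone horn of all 5 gilts. The fitted difference was 0.90 ± 0.21, or 1.87-fold, and it did not pass; only 1 of 39073 probes did so (0.00256%), and 3876 had an unadjusted p under 0.05 (limma). Between the horns of control gilts, P minus L was 0.74 in gilt 9, -0.12 in gilt 14, -0.13 in gilt 28 and -0.34 in gilt 46. These 4 control differences went both ways, and that of gilt 9 was larger than the smallest of the 5 treated differences. The fitted P minus L difference was 0.03 ± 0.24, and 0 of all probes passed in that comparison (limma; 933 had an unadjusted p under 0.05).

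The sum of smooth muscle marker genes lay in the same order as SFRP4 between the horns of treated gilts. The 3 measured of 5 (ACTA2, CNN1 and DES) summed to 60.8 to 125 times the 75th percentile in hormone horns, 30.4 to 59.9 in placebo horns and 29.5 to 210 in control horns. The hormone horn had the higher sum in all 5 gilts. Of all single probes, 5.36% were higher in the hormone horn of all 5. The lowest hormone horn (60.8) lay just above the highest placebo horn (59.9). How many of all probes separate these groups in this way was not counted. Between these horns ACTA2 differed by 0.82 ± 0.28, CNN1 by 1.26 ± 0.49 and DES by 0.50 ± 0.36, and none passed (limma adjusted p = 0.371, 0.414 and 0.616). Control gilt 9, whose P horn exceeded its L horn in SFRP4, had a sum of 210 in the P horn and 29.5 in the L horn. In the other control gilts SFRP4 was lower in the P horn. Their sums in the P and L horns were 49.6 and 34.4 in gilt 14, 33 and 35.3 in gilt 28, and 49.6 and 80.6 in gilt 46. In gilt 14 the sum and SFRP4 therefore went opposite ways. The part of smooth muscle in the SFRP4 levels was not tested.

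**Figure D1:**
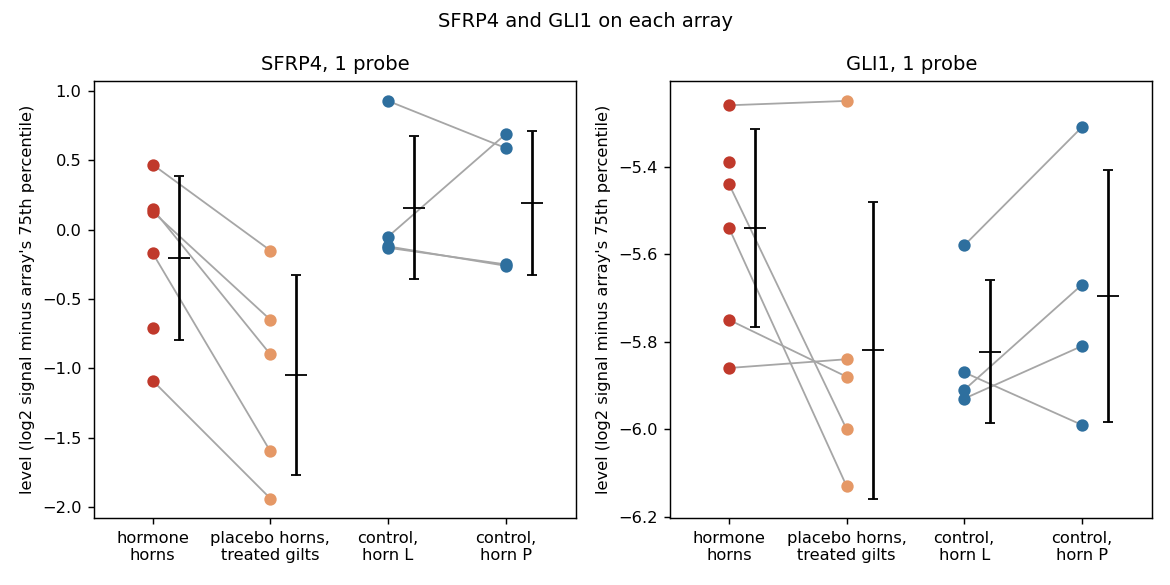
Level of SFRP4 (left) and GLI1 (right) on each of the 19 arrays, as log2 signal minus the array's 75th percentile, for hormone horns, placebo horns of treated gilts and the L and P horns of control gilts. Grey lines join the horns of a gilt, black bars are the group mean ± SD. SFRP4 falls along each of the 5 lines between hormone and placebo horns (mean difference 0.95), while the GLI1 lines slope both ways and the groups overlap.

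From high to low, SFRP4 averaged 0.19 and 0.16 in the P and L horns of control gilts, -0.20 in hormone horns and -1.05 in placebo horns. The first 3 of these lay within an SD of each other, and the placebo horns lay further from the hormone horns than either SD. Placebo horns averaged below control horns on each of the 3 scan days. These are the arrays that chose the gene, so this order describes them and gives no further support. The means were -0.88 in placebo horns and 0.32 in control horns on the first day (2 arrays each), -0.65 and -0.19 on the second (1 and 4 arrays), and -1.42 and 0.76 on the third (2 each). Hormone horns averaged 0.15, -0.29 and -0.47 on these days.

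The call for SFRP4 in placebo horns depended on single animals and on the model. The difference was negative in all 26 alternative settings, between -2.18 and -0.63, but passed in 12 of them. It passed in 3 of the 10 fits that left out a gilt (gilts 36, 41 and 40) and not without gilt 9, 14, 28, 46, 38, 44 or 47, with values of -1.50 to -1.08. With both horns of a control gilt averaged into 1 value it was -1.22 and did not pass.

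The summed signal of stromal marker genes was set beside that of SFRP4. The 4 measured of 10 stroma and fibroblast markers (COL1A2, DCN, LUM and THY1) summed to 228 to 358 times the 75th percentile in hormone horns, 218 to 270 in placebo horns and 161 to 235 in control horns, and each was above background on all arrays. Between placebo horns and control gilts COL1A2 differed by 0.27 ± 0.22, DCN by 0.15 ± 0.14, LUM by 0.27 ± 0.16 and THY1 by 1.46 ± 0.69, and none passed (limma adjusted p = 0.472, 0.549, 0.308 and 0.204). Between hormone and placebo horns COL1A2 differed by 0.48 ± 0.15, DCN by 0.23 ± 0.10, LUM by 0 ± 0.11 and THY1 by 0.94 ± 0.47, and none passed (limma adjusted p = 0.307, 0.456, 0.997 and 0.519). Their part in the SFRP4 levels was not tested.

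GLI1 was dim and its groups overlapped. In hormone horns its level was -5.26 in gilt 36, -5.54 in gilt 38, -5.39 in gilt 40, -5.86 in gilt 41, -5.44 in gilt 44 and -5.75 in gilt 47 (probe A_72_P004986). In placebo horns it was -5.25 in gilt 36, -6.13 in gilt 38, -5.84 in gilt 41, -6.00 in gilt 44 and -5.88 in gilt 47. In control gilts the L horns stood at -5.91, -5.93, -5.87 and -5.58 and the P horns at -5.67, -5.81, -5.99 and -5.31 (gilts 9, 14, 28 and 46). The highest placebo horn, that of gilt 36, was level with the highest hormone horn, and 2 placebo horns lay below every control horn. The lowest level that counted as well above background was between -7.35 and -6.08 on the 19 arrays. GLI1 was therefore close to the detection limit, and it was not well above background in the L horn of gilt 14.

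GLI1 averaged -5.54 ± 0.23 in hormone horns (SD, n = 6), -5.82 ± 0.34 in placebo horns (SD, n = 5) and -5.76 ± 0.22 in control gilts (SD over 4 gilt means). Hormone horns differed from control gilts by 0.22 ± 0.18 and placebo horns from control gilts by -0.04 ± 0.19. Hormone horns differed from placebo horns by 0.26 ± 0.13, and horn P from horn L of control gilts by 0.13 ± 0.15. None of the 4 passed, and the neighbouring means in the order from hormone to control to placebo horns lay within an SD of each other. Within treated gilts the hormone horn was higher by 0.59 in gilt 38, 0.55 in gilt 44 and 0.13 in gilt 47, and differed by -0.03 in gilt 41 and by 0 in gilt 36.

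For CTNNB1 the estimates were above 0 in both horns of treated gilts against control gilts at each of its 5 probes, and the probes gave unlike sizes. The probes read the same arrays and both comparisons share the control horns, so these are not separate observations. Over all genes with a symbol the median difference was 0.17 in hormone horns and 0.07 in placebo horns. Hormone horns differed from control gilts by 0.26 ± 0.09 at A_72_P035751, by 0.27 ± 0.11 at A_72_P575864, by 0.72 ± 0.53 at A_72_P586606, by 0.35 ± 0.13 at A_72_P569999 and by 0.81 ± 0.20 at A_72_P538553, in order from the highest to the lowest mean level. Placebo horns differed from control gilts by 0.15 ± 0.10, 0.18 ± 0.11, 0.66 ± 0.54, 0.42 ± 0.13 and 0.90 ± 0.20 at the same probes. In each of these comparisons only A_72_P538553 passed, or 1 of 5 probes, against 6.72% of all probes called higher in hormone horns and 2.46% in placebo horns. In hormone horns A_72_P035751, A_72_P575864 and A_72_P569999 gave 1.2- to 1.28-fold, and A_72_P538553 gave 1.76-fold in hormone horns and 1.87-fold in placebo horns.

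**Figure D2:**
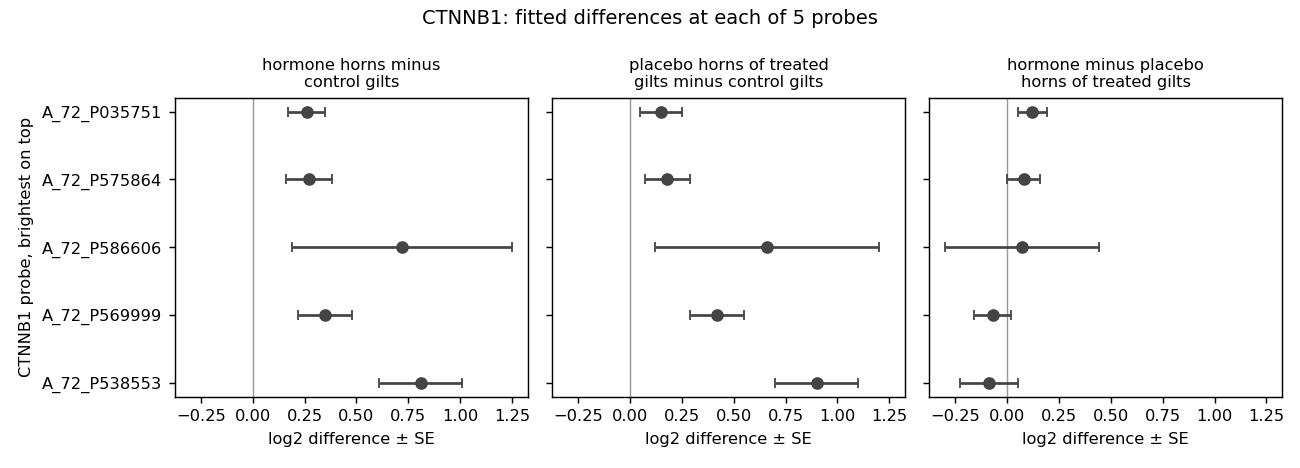
Fitted log2 difference ± SE at each of the 5 CTNNB1 probes, highest mean level on top, for hormone horns minus control gilts (left), placebo horns minus control gilts (middle) and hormone minus placebo horns (right). Against control gilts all 10 estimates are above 0 (0.15 to 0.90), and between horns of treated gilts they lie on both sides of 0 (-0.09 to 0.12). The probes share arrays and control horns. The median over all genes with a symbol was 0.17 in hormone and 0.07 in placebo horns against control gilts.

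At the brightest probe, A_72_P035751, hormone horns had levels of 5.20, 5.02, 5.21, 5.06, 5.27 and 5.12 (gilts 36, 38, 40, 41, 44 and 47). Placebo horns had 4.91, 5.06, 4.96, 4.96 and 5.23 (gilts 36, 38, 41, 44 and 47). Control horns had 4.97, 4.81, 4.83 and 4.94 on the L side and 4.89, 4.86, 4.76 and 5.03 on the P side (gilts 9, 14, 28 and 46). The hormone horn of gilt 38 fell just inside the control range, the other 5 lay above it, and of the placebo horns those of gilts 38 and 47 lay above it.

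At the dimmest probe, A_72_P538553, hormone horns had levels of 0.95, 0.24, 0.42, 0.41, 0.74 and 0.82 (same gilts). Placebo horns had 0.65, 0.61, 0.36, 0.78 and 1.12. Control horns had 0.33, -0.40, -0.34 and 0.16 on the L side and -0.59, -0.57, -0.59 and 0.26 on the P side. All 5 placebo horns lay above all control horns, as did 3.02% of all probes, and of the hormone horns all but that of gilt 38 did. The horns of control gilt 9 differed by 0.92 at this probe, the L horn being the higher, so the spread between horns of a control animal came up to the size of the difference between groups. The difference passed in 8 of the 10 fits that left out a gilt for hormone horns (not without gilt 14 or 28, lowest value 0.72) and in 5 of 10 for placebo horns (not without gilt 9, 14, 28, 38 or 47, lowest 0.80). With control horns averaged per gilt the placebo difference was 0.92 and did not pass. With only the compared groups in the fit it was 0.81 in hormone horns and 0.92 in placebo horns, and neither passed. Within the 3 scan days it was 0.97, 0.89 and 0.32 for hormone horns and 0.84, 0.84 and 0.66 for placebo horns, and it passed in none of these smaller fits.

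The means at A_72_P575864 were 4.67 ± 0.15 in hormone horns, 4.59 ± 0.16 in placebo horns and 4.40 ± 0.09 in control gilts. At A_72_P569999 they were 2.87 ± 0.18 in hormone horns, 2.93 ± 0.21 in placebo horns and 2.51 ± 0.15 in control gilts (SD, n = 6, 5 and 4 gilt means). At both probes the treated and control horns overlapped. At A_72_P586606 hormone horns lay between 3.45 and 3.74, placebo horns between 3.39 and 3.80, and 7 of the 8 control horns between 3.21 and 3.42. The L horn of control gilt 28 stood at -0.29, and without gilt 28 the difference from control gilts at this probe was 0.26 in hormone horns and 0.19 in placebo horns. All 6 hormone horns lay above all control horns at this probe, as did 3.83% of all probes.

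**Figure D3:**
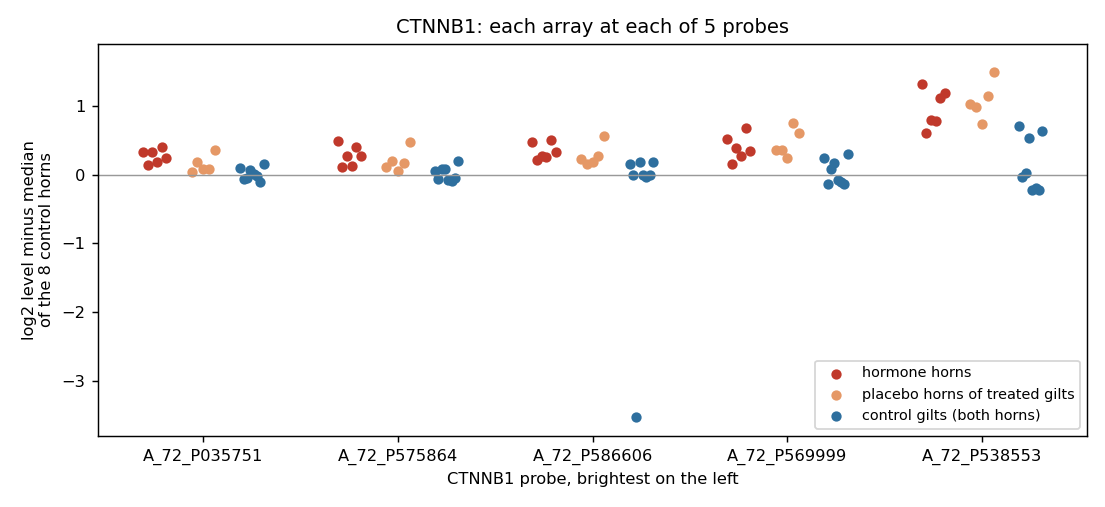
Level of CTNNB1 on each of the 19 arrays at each of its 5 probes, given as log2 level minus the median of the 8 control horns at that probe, with hormone horns, placebo horns of treated gilts and control horns side by side. At A_72_P538553 all 5 placebo horns and 5 of the 6 hormone horns lie above all control horns, at the other probes the groups lie closer together, and a single control horn (gilt 28, level -0.29) lies far below at A_72_P586606.

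Between the horns of treated gilts CTNNB1 differed by little. The fitted differences of hormone minus placebo horns were 0.12 ± 0.07, 0.08 ± 0.08, 0.07 ± 0.37, -0.07 ± 0.09 and -0.09 ± 0.14 at the 5 probes from brightest to dimmest, and none passed. At A_72_P035751 the single differences were 0.30 in gilt 36, -0.05 in gilt 38, 0.10 in gilt 41, 0.31 in gilt 44 and -0.11 in gilt 47. In control gilts P minus L at this probe was -0.08, 0.05, -0.07 and 0.09 (gilts 9, 14, 28 and 46). The placebo horn of gilt 47, with the highest neutrophil sum (79.5), also had the highest placebo level of CTNNB1 at 4 of the 5 probes. At A_72_P569999 the highest was the placebo horn of gilt 44 (3.22), which had the lowest neutrophil sum (0.21). Among hormone horns, that of gilt 38 had a neutrophil sum of 61.6 and the lowest CTNNB1 level at all 5 probes. Both horns of gilt 47 also had the highest sums of the macrophage, B cell, and T and natural killer cell genes. Its macrophage sum was 188 in the placebo horn and 161 in the hormone horn, against 5.35 to 11 in control horns. The part of immune cells in the CTNNB1 levels was not tested. Without both horns of gilt 47 the difference of placebo horns from control gilts at A_72_P538553 was 0.80 and did not pass.

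The 10 pairs of CTNNB1 probes were positively correlated over the 19 arrays, with r of 0.28 to 0.92 in levels and 0.06 to 0.85 in deviations from group means, and the 4 lowest of each all involved A_72_P586606. SFRP4 and GLI1 correlated at 0.47 in levels and 0.59 in deviations. SFRP4 correlated with the 5 CTNNB1 probes at -0.34 to -0.06 in levels and 0.17 to 0.39 in deviations. Values of an array share its RNA, slide and scaling, and both horns of a gilt share the animal, so these coefficients describe the arrays and carry no test.

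The genes most like each member were found among those with a symbol whose probe was above background on all 19 arrays (2778 genes), by correlation of levels over the arrays. For SFRP4 these were RTN4 (r = 0.81, and 0.94 in deviations from group means), AKR1C1, an enzyme that inactivates progesterone in human tissue (0.78 and 0.79), ACADL, a dehydrogenase of fatty acid oxidation (0.75 and 0.73), the cell cycle phosphatase CDC25C (0.75 and 0.64) and the transcription factor KLF14 (0.73 and 0.46). RTN4 varied little between groups, at 3.74 ± 0.37 in hormone horns, 3.66 ± 0.26 in placebo horns and 3.79 ± 0.21 in control gilts, so its likeness to SFRP4 lay between animals within groups. For GLI1 they included MGST3 (0.74 and 0.71), LGALS1, which encodes galectin 1 (0.72 and 0.63), IHH (0.71 and 0.73) and GNRH1 (0.70 and 0.64). For the brightest CTNNB1 probe they were NME1 (0.92 and 0.82), its close paralog NME2 (0.91 and 0.73 over the 15 arrays on which its spot carried no outlier flag), LRRC59 (0.91 and 0.82), the glycolytic enzyme PGK1 (0.90 and 0.80) and the mitochondrial ribosomal protein gene MRPS11 (0.90 and 0.77). KLF14 averaged -5.8 in hormone, -6.04 in placebo and -5.56 in control horns, close to the detection limit. GNRH1 also came close to this limit on some arrays (lowest level -6.58).

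IHH, the ligand that GLI1 reads out, was thus among the genes most like GLI1. Its level was 3.98, 1.11, 2.07, 1.21, 0.57 and -0.30 in hormone horns (gilts 36, 38, 40, 41, 44 and 47). It was 2.98, 0.13, 0.09, 0.89 and -0.14 in placebo horns, and -0.01 to 1.78 in control horns. Both horns of gilt 36 were far above the rest, and they were also the highest of their groups for GLI1. Without these 2 arrays, those farthest from the median of IHH, the correlation was 0.51 over 17 arrays, against 0.71 over 19. IHH differed between hormone horns and control gilts by 0.77 ± 0.54 and between placebo horns and control gilts by 0.19 ± 0.55, and neither passed (limma adjusted p = 0.376 and 0.866).

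**Figure D4:**
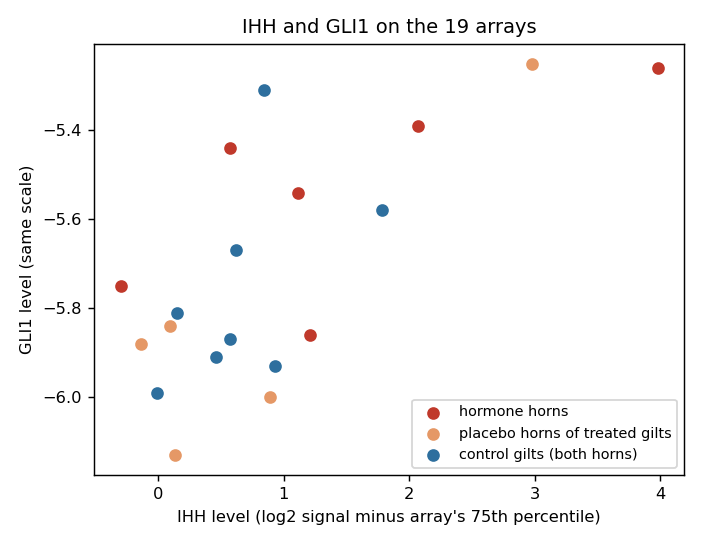
Level of GLI1 against level of IHH on the 19 arrays, both as log2 signal minus the array's 75th percentile, with hormone horns, placebo horns and control horns in separate colours. The arrays at the right, with IHH at 3.98 and 2.98, are both horns of gilt 36, and r is 0.71 with them and 0.51 without them.

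The wider pathways were covered thinly, because only 3010 genes had a tested probe with a symbol. Of the Wnt and hedgehog lists, 42 genes other than the members were measured. In hormone horns against control gilts 7 of the 42 rose and 1 fell (limma, adjusted p under 0.05), with a median difference of 0.20, against 12.7% higher, 2.46% lower and a median of 0.17 over all genes with a symbol. In placebo horns against control gilts 2 rose and 0 fell, with a median of 0.12, against 3.65% higher, 0.831% lower and a median of 0.07. Between the horns of treated gilts 0 of 42 passed (limma; 4 had an unadjusted p under 0.05), as did 0 of the 3010 genes.

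Among Wnt ligands and agonists, 2 of 26 genes were measured. NDP, which encodes norrin, a Frizzled ligand that is not a Wnt but activates β-catenin, fell by 1.55 on the log2 scale in hormone horns against control gilts (± 0.33, limma adjusted p = 0.00748). Its level was -1.51, -2.17, -2.00, -1.60, -2.93 and -1.85 in hormone horns, -1.26, -0.60, -1.78, -1.68 and -1.33 in placebo horns, and between -1.03 and 0.25 in control horns. All 6 hormone horns were below all control horns, as were 3.07% of all probes, and the call stood in all 10 fits without a gilt (highest adjusted p = 0.0393). In placebo horns NDP differed by -0.87 ± 0.34 (adjusted p = 0.13). WNT2B differed by 1.05 ± 0.39 in hormone horns and 0.84 ± 0.41 in placebo horns (adjusted p = 0.088 and 0.215).

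None of the other secreted antagonists, 5 measured of 15, passed in either comparison with control gilts (limma). In hormone horns DKK2 differed by -1.09 ± 0.48 and DKK3 by 0.41 ± 0.21 (adjusted p = 0.153 and 0.218). In placebo horns, where SFRP4 was lowest, SFRP5 differed by 0.80 ± 0.43, FRZB by 0.26 ± 0.23 and DKK3 by 0.40 ± 0.21, while DKK2 differed by -1.16 ± 0.50 and DKK1 by 0.30 ± 0.39 (limma adjusted p of 0.264, 0.521, 0.265, 0.167 and 0.674). The only receptor measured of 21, FZD3, differed by -0.19 ± 0.16 in hormone horns and -0.37 ± 0.17 in placebo horns (adjusted p = 0.484 and 0.195).

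Of the genes that control the turnover of β-catenin, 5 of 30 were measured and none passed in either comparison with control gilts. PPP2R1A, a scaffold subunit of protein phosphatase 2A, differed by 0.50 ± 0.17 in hormone horns (limma adjusted p = 0.0706), and by 0.47 ± 0.18 in placebo horns (adjusted p = 0.128). PPP2CA, the catalytic subunit of the same phosphatase, differed by 0.19 ± 0.12 in hormone horns and 0.13 ± 0.12 in placebo horns (adjusted p = 0.31 and 0.521). In hormone horns GSK3B, the kinase that marks β-catenin for degradation, differed by 0 ± 0.13 (adjusted p = 0.995). Of 4 measured of 22 nuclear partners none passed. LEF1 differed by -0.62 ± 0.29 in hormone horns and -0.42 ± 0.30 in placebo horns (adjusted p = 0.18 and 0.412). PYGO2, a coactivator of β-catenin, differed by -0.13 ± 0.13 in hormone horns (adjusted p = 0.536), and EP300, a histone acetyltransferase, by -0.33 ± 0.19 in placebo horns (adjusted p = 0.3).

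Of the Wnt target genes 8 of 22 were measured, and 2 rose in hormone horns, as did 12.7% of all genes with a symbol. BIRC5, which encodes survivin, an inhibitor of cell death found in dividing cells, rose by 1.27 ± 0.25 (2.41-fold, limma adjusted p = 0.00598). Its level was 1.08, 1.05, 0.52, 0.41, 0.64 and 2.11 in hormone horns, 0.37, 0.51, -0.08, -0.26 and 1.44 in placebo horns, and between -0.73 and -0.03 in control horns. All hormone horns were above all control horns, as were 3.83% of all probes, with gilt 47 the highest. The BIRC5 call stood in all 10 fits without a gilt (limma, highest adjusted p = 0.0325). MMP2, a matrix metalloproteinase, rose by 0.40 ± 0.12 (adjusted p = 0.0389), a call that stood in 3 of 10 such fits and was lost without gilt 9, 28, 46, 36, 38, 44 or 47. It was also lost with quantile normalization (0.27, adjusted p = 0.184), with normexp on median signals (0.26, adjusted p = 0.227), in the authors' value table (adjusted p = 0.0518) and with control horns averaged per gilt (adjusted p = 0.0582). BIRC5 differed by 0.65 ± 0.26 in placebo horns (adjusted p = 0.145). MYC differed by 0.83 ± 0.39 in hormone horns and 1.10 ± 0.41 in placebo horns (adjusted p = 0.178 and 0.112).

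The junction partners of β-catenin were the list with the most calls, 4 of 7 measured genes of 19. Of all genes with a symbol, 12.7% were called higher in hormone horns and 3.65% in placebo horns. The list was chosen with earlier results of these data known. In hormone horns CDH1 (E-cadherin) rose by 0.95 ± 0.25, NECTIN2 by 0.68 ± 0.17, CDH11 by 0.66 ± 0.20 and CDH5 (the cadherin of blood vessel lining) by 0.61 ± 0.18 (limma adjusted p = 0.0204, 0.0161, 0.0376 and 0.0319). In placebo horns CDH1 rose by 0.95 ± 0.25 and NECTIN2 by 0.68 ± 0.17 (adjusted p = 0.0422 and 0.0369). CDH1 averaged 2.81 ± 0.21 in hormone horns, 2.77 ± 0.36 in placebo horns and 1.86 ± 0.19 in control gilts. JUP, or plakoglobin, which is closely related to β-catenin, differed by -0.04 ± 0.18 in hormone horns (adjusted p = 0.912). The list's median difference was 0.61 in hormone horns, with estimates from -0.20 to 0.95.

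CDH1 and CDH5 are also markers of epithelium and endothelium, and each is itself part of its marker sum. The highest sums of both lists were in treated gilts. The epithelial sums of treated and control horns overlapped, as did the endothelial sums of placebo and control horns. All endothelial sums of hormone horns lay above those of control horns, as did 3.83% of all single probes. In both comparisons with control gilts 3 of the 4 epithelial genes were called higher (limma). Of the 4 endothelial genes 3 were called higher in hormone horns and 0 in placebo horns. The shares over all genes with a symbol were 12.7% in hormone and 3.65% in placebo horns. Among the epithelial genes KRT8 went the other way, with mean levels of 5.89 in hormone, 6.05 in placebo and 6.22 in control horns. The epithelial genes (4 of 8 measured) summed to 86.3 to 168 times the 75th percentile in hormone horns, 99.7 to 151 in placebo horns and 78.9 to 121 in control horns. Their median difference from the control mean was 0.64 to 1.07 in hormone, 0.4 to 0.93 in placebo and -0.68 to 0.25 in control horns. The endothelial genes (4 of 6) summed to 25.4 to 40.2 in hormone horns, 19.9 to 42.4 in placebo horns and 16.8 to 23.6 in control horns. The part of cell makeup in the junction genes and in CTNNB1 was not tested. Leaving out single gilts ended the calls in hormone horns for CDH1 without gilt 14, 28 or 44, for NECTIN2 without gilt 9, 14 or 28, for CDH5 without gilt 9, 14, 28, 41 or 44, and for CDH11 without gilt 9, 14, 28, 36, 41 or 44. In placebo horns CDH1 passed in 3 and NECTIN2 in 4 of the 10 such fits, and both were lost without gilt 9, 14, 28, 38 or 47. CDH1 was also lost there without gilt 44 or 40, and NECTIN2 without gilt 41. With control horns averaged per gilt CDH5 and CDH11 lost the call in hormone horns (limma adjusted p = 0.0665 and 0.118), and CDH1 and NECTIN2 lost it in placebo horns (adjusted p = 0.0521 and 0.0779). Quantile normalization and normexp on median signals ended the calls of CDH5 in hormone horns (adjusted p = 0.0555 and 0.0717) and of CDH1 in placebo horns (adjusted p = 0.057 and 0.0665), and normexp ended that of CDH11 (adjusted p = 0.0501).

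**Figure D5:**
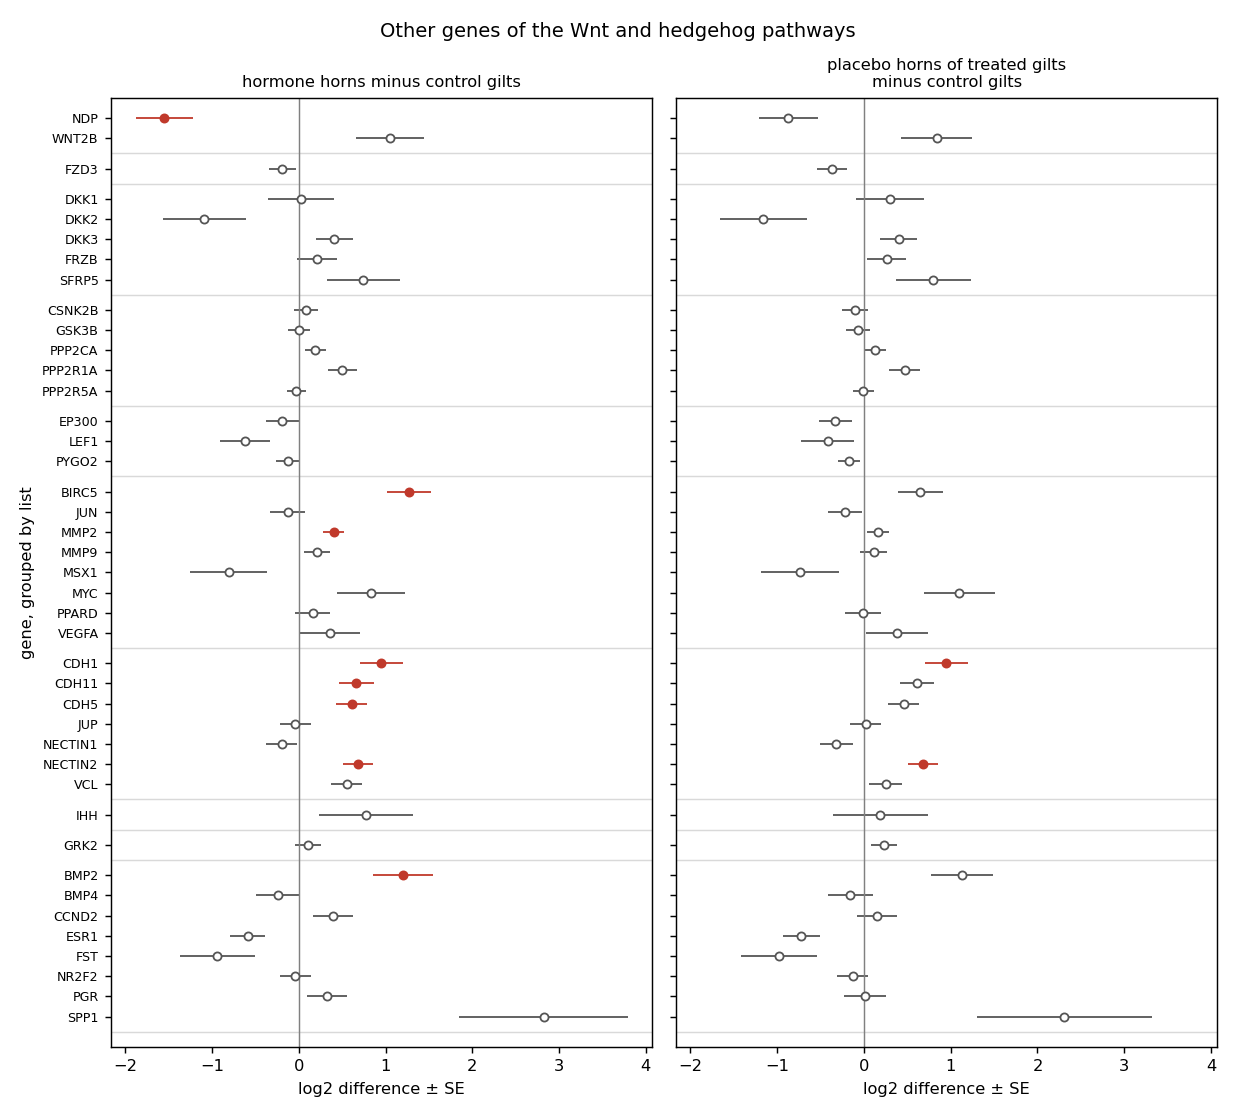
Log2 difference ± SE of 41 of the 42 other measured genes of the Wnt and hedgehog lists, grouped by list, in hormone horns (left) and placebo horns (right) against control gilts. Filled red points passed at an adjusted p under 0.05, 8 on the left and 2 on the right. NDP is the only red point below 0, and 4 of the 7 junction genes are red on the left. Of all genes with a symbol, 12.7% were called higher in hormone horns.

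On the hedgehog side 1 of 10 ligand and release genes (IHH), 1 of 21 receptor and transduction genes and 8 of 17 target genes were measured. BMP2, a growth factor downstream of IHH in the mouse uterus, rose by 1.20 ± 0.35 in hormone horns (2.30-fold, limma adjusted p = 0.0336) and differed by 1.13 ± 0.36 in placebo horns (adjusted p = 0.0731). The BMP2 call in hormone horns stood in 4 of 10 fits without a gilt and was lost without gilt 9, 14, 28, 38, 44 or 40. It was also lost with normexp on median signals (0.72, adjusted p = 0.057) and with control horns averaged per gilt (adjusted p = 0.0633). NR2F2, the nuclear receptor through which IHH acts on mouse stroma, differed by -0.04 ± 0.18 in hormone horns (adjusted p = 0.92). GRK2, a kinase that acts on the hedgehog transducer SMO, differed by 0.10 ± 0.15 (adjusted p = 0.721). SPP1, or osteopontin, differed by 2.82 ± 0.97 in hormone horns (adjusted p = 0.0668), with an SD of 2.58 between these horns, and the estrogen receptor gene ESR1 by -0.59 ± 0.20 (adjusted p = 0.0647). ESR1 differed by -0.72 ± 0.21 in placebo horns (adjusted p = 0.0553).

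Between the horns of treated gilts the smallest p of the lists belonged to BIRC5, at 0.62 ± 0.18 (adjusted p = 0.27), followed by NDP at -0.68 ± 0.23 (adjusted p = 0.354) and MMP2 at 0.25 ± 0.09 (adjusted p = 0.367) (limma). At the junctions VCL, which encodes vinculin, differed by 0.30 ± 0.13 and CDH5 by 0.15 ± 0.12, and among hedgehog targets the progesterone receptor gene PGR by 0.31 ± 0.16 and CCND2 by 0.25 ± 0.16. IHH differed by 0.58 ± 0.38, GRK2 by -0.13 ± 0.10, FZD3 by 0.17 ± 0.11 and WNT2B by 0.22 ± 0.28. In the remaining lists DKK1 differed by -0.28 ± 0.27, FRZB by -0.05 ± 0.16, CSNK2B by 0.18 ± 0.10, GSK3B by 0.07 ± 0.09 and EP300 by 0.14 ± 0.13. The comparisons with control gilts share the 8 control horns, and they set 5 or 6 treated animals against 4.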

How the data were processed

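RNA of 19 endometrial samples was measured on one-colour arrays. The deposited scanner files give an intensity on a linear scale for every spot, which Agilent Feature Extraction 10.7.3.1 had background-subtracted within each array and not scaled between arrays, per the file headers. The submitters' processing notes name version 9.1. The authors' deposited value table holds log2 values (r of 0.996 to 0.999 with the scanner values, medians per array of 7.72 to 7.83), and it served as an alternative, its normalization and centring being unstated in the labels.

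Control spots and outlier-flagged values (893 among tested probes) were left out. Levels were log2 processed signal minus each array's 75th percentile. Tests covered the 39073 probes that exceeded background clearly on 4 or more arrays, with limma 3.58.1 (statmod 1.5.0, R 4.3.3): means of 4 groups, gilt as random block (duplicateCorrelation, 0.536), eBayes with trend, two-sided, Benjamini-Hochberg over all probes, threshold 0.05. The fit counts arrays, so where a probe varies much from gilt to gilt its adjusted p against control gilts can be too low. Arrays with the same gilt number come from the same animal, and their deviations from group means correlated at 0.336 to 0.795 in all 9 pairs (at most 0.353 with other gilts). The horns of a gilt shared a slide, and only 1 of 9 slides held a treated and a control gilt.

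Symbols came from RefSeq accessions matched without version to the Sscrofa11.1 gene table, and 6768 of 43603 probes had a single symbol. The brightest probe by mean level stood for a gene, and CTNNB1 is given at all its probes. No coordinates or sequences were used. The scripts were tested on simulated data. The number of arrays limits the precision.

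The 3 members and the pathway and marker lists were chosen with earlier results of these data known. Named genes are the members, every called gene of the pathway lists, in a list with none called the 2 of smallest p, and the 5 genes most like each member; other list genes named beside them, such as JUP, NR2F2 and SPP1, were added after their values were seen. A few genes that the rule names are not reported here. Alternatives were other normalizations, filters, blocks, batches (slide, scan day), the authors' table and leaving out each gilt. Normexp was planned on mean signals, which the files do not hold, and was run on median signals.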

Additional observations from a re-analysis of the deposited data

Results flagged for a closer look

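In 6 of the 28 sets of values (7 probes in 4 groups) the highest or lowest array stood apart from the rest of its group by Dixon's criterion. A single group meets this criterion by chance in about 1 of 20 cases. The 28 sets are not independent, because 5 of the 7 probes read CTNNB1 on the same arrays. No excess over chance can therefore be read from the 6 sets. Control gilt 46 accounted for 5 of them. Its L horn was the highest of the L horns for SFRP4 (0.93, next highest -0.05) and GLI1 (-5.58, next -5.87). Its P horn was the highest of the P horns for CTNNB1 at A_72_P575864 (4.58, next 4.33), A_72_P569999 (2.77, next 2.39) and A_72_P538553 (0.26, next -0.57). Without gilt 46 the SFRP4 difference of placebo horns from control gilts was -1.08 and did not pass (limma). The sixth was the L horn of control gilt 28 at CTNNB1 probe A_72_P586606 (-0.29, next lowest 3.24), which carried no outlier flag.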

How the results depend on the processing

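Across the alternatives 435 values stayed close to those reported and 97 moved, mostly counts of probes. A change of sign was scored only for called differences at each member's brightest probe. The SFRP4 difference in placebo horns was the only such value, and it kept its sign. Some uncalled differences in hormone horns did change sign, such as SFRP4 (-0.37, and 0.32 with slide as a term) and GLI1 (0.22, and -0.20 within scan day 3). With control horns averaged per gilt, the calls fell to 2189 probes in hormone horns and 93 in placebo horns against control gilts, with 4 and 0 pathway genes. With only the groups compared in the fit, 14 probes passed in placebo horns, with 4 pathway genes in hormone horns and 0 in placebo horns. With no replicate block (unpaired) the counts were 6972 and 3570 probes, 4 pathway genes in placebo horns, and 0 probes between horns; with gilt as a fixed replicate block 16 probes passed between horns. Normexp on median signals (chosen after seeing the data) gave 1047 probes in placebo horns, 4 and 1 pathway genes, and 23 probes between horns (69.6% higher); quantile normalization gave 34 between horns (35.3% higher) and brought CTNNB1 in hormone horns to 0.11. Between horns 0 probes passed in the authors' table and among probes above background on all arrays, 5 passed with scan day as a term and 16 with slide. With slide as a term the comparison with controls rests on gilts 36 and 9: SFRP4 was 0.32 in hormone and -0.63 in placebo horns, GLI1 0.66 and 0.41, with 3165 probes and 7 pathway genes in placebo horns.

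Within scan days 1, 2 and 3, hormone horns had 4, 82 and 0 probes called against controls, placebo horns 4, 10 and 0, and between horns 0 passed (limma; 0 pathway genes throughout). On day 3 SFRP4 was -1.22 in hormone and -2.18 in placebo horns, GLI1 -0.20 and -0.56, and CTNNB1 0.08 in hormone horns against controls and -0.08 between horns; on day 1 CTNNB1 was 0.01 in placebo horns against controls and 0.30 between horns, and SFRP4 P minus L was 0.74. Other CTNNB1 probes gave 0.72 (A_72_P586606) and 0.81 (A_72_P538553) in hormone horns, 0.66, 0.42 (A_72_P569999) and 0.90 in placebo horns, -0.07 (A_72_P569999) and -0.09 (A_72_P538553) between horns, and 0.83 (A_72_P586606) and -0.31 (A_72_P538553) for P minus L; without gilt 28, A_72_P586606 gave 0.26, 0.19 and -0.06 in hormone horns, placebo horns and P minus L. Leaving out single gilts or horns gave 1454 to 5287 probes in hormone horns, 0 to 3294 in placebo horns and 0 to 16 between horns, and 2 to 9 and 0 to 3 pathway genes. The causes were not tested. GLI1 lies near background.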
